A study of Rattus norvegicus with 4 samples.

Results

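The genes described here are 10 members of the matrix metalloproteinase system, which were chosen by name: the metalloproteinases Mmp2, Mmp3, Mmp7, Mmp9, Mmp12, Mmp13 and Mmp14 and the tissue inhibitors Timp1, Timp2 and Timp3. Of these, 6 were measured in rat colon, among 6963 genes measured by name. Mmp2, Mmp12, Mmp14, Timp1, Timp2 and Timp3 each had 1 row with a value on all 4 arrays. Mmp3, Mmp7 and Mmp9 had a row that was blank on all 4 arrays, and no row was matched to Mmp13 by name. RNA came from colon tissue of male Sprague Dawley rats, control rats and rats with mesenchymal stem cell transplantation (MSCT), with 2 one-color NimbleGen arrays per group. The sample titles number the arrays of a group as replicates. Each array was taken here as 1 rat, which the titles do not state. MSCT rats had colitis induced with 2,4,6-trinitrobenzene sulfonic acid (TNBS) in ethanol and then received mesenchymal stem cells (MSCs), grown in L-DMEM and carrying green fluorescent protein, through the tail vein. Control rats had no MSC transplantation. The paper compares MSCT rats with IBD rats, whereas the sample descriptions name the control animals as normal and the series text uses both names, so whether the control rats had TNBS colitis was not settled. The day of sampling differs between the paper's Methods and Results and is not in the labels, and the age of the rats is not given. The pieces of colon covered the lesion, and transplanted cells and cells of the host were not separated.

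Matrix metalloproteinases are zinc enzymes that cut collagen, elastin, basement membrane and many cell surface proteins. They are made as inactive proenzymes, which plasmin, furin or other metalloproteinases open, and TIMPs block the active enzymes. In colitis they are known for their part in ulceration and in the remodelling of the wall that follows, with stromal cells, macrophages, neutrophils and epithelium as sources.

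Many metalloproteinase genes are known to respond to AP-1, the dimer of Fos and Jun proteins, and the RefSeq promoter table of GRCr8 held 7 of the 10 genes (Mmp3, Mmp7, Mmp12, Mmp13, Timp1, Timp2 and Timp3). The promoters of Mmp3, Mmp7, Mmp12 and Mmp13 lie within 350214 bases of chromosome 8, on the plus strand. Each held 1 match to the AP-1 motif (TGAGTCA or TGACTCA, which are the same site read on opposite strands). The match began 71 bases before the gene start in Mmp3, 80 in Mmp7, 87 in Mmp12 and 66 in Mmp13. Each also held TATAAA, with the match nearest to the start beginning between 32 (Mmp3) and 47 (Mmp13) bases before it. None of the 3 Timp promoters held either motif, and each held the GC box GGGCGG, 1 time in Timp1, 1 time in Timp2 and 3 times in Timp3. Over all 33469 promoters of 300 bases, 4.63% held the AP-1 motif, 14.2% TATAAA and 33.1% the GC box. Among promoters of genes measured by name, the AP-1 motif was held by 4.20% and the GC box by 57.5%. All motifs were read on both strands, and no 2 matches overlapped. Only exact matches were searched, so AP-1 sites that differ from TGAGTCA and TGACTCA were not counted in any promoter. A match describes the letters in this window, and no binding was measured. The contrast is one of these 7 promoters, and the 4 Mmp genes are neighbors on 1 chromosome. No promoter was found for Mmp2, Mmp9 or Mmp14. Of 13 promoters found for the list of other metalloproteinases and Timp4, 2 held the AP-1 motif (Mmp1 and Mmp10), 5 TATAAA and 6 the GC box. The 150 bases before each start are given from 5′ to 3′, with matches to the 3 motifs in capitals. The Timp3 GC box that begins 158 bases before the start lies outside the printed stretch. Mmp3 is read from chr8:12925131-12925280 on the plus strand, Mmp7 from chr8:13132893-13133042 on the plus strand, Mmp12 from chr8:12866502-12866651 on the plus strand and Mmp13 from chr8:12782679-12782828 on the plus strand. Timp1 is read from chrX:3771123-3771272 on the minus strand, Timp2 from chr10:104089215-104089364 on the minus strand and Timp3 from chr7:19459559-19459708 on the minus strand.
Mmp3: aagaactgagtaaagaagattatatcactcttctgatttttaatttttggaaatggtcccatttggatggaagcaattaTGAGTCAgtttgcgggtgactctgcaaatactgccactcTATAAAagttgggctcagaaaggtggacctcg
Mmp7: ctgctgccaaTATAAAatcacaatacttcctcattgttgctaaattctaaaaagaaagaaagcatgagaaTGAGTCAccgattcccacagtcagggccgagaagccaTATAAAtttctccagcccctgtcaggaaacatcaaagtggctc
Mmp12: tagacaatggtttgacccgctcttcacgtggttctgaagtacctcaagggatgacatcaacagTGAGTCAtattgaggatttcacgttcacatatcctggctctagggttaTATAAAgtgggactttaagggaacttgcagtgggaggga
Mmp13: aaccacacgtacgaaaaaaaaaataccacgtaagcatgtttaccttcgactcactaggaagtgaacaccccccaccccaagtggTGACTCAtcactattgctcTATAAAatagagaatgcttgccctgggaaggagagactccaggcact
Timp1: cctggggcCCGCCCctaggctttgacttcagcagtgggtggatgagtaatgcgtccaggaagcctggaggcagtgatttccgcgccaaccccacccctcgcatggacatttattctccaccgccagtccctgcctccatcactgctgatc
Timp2: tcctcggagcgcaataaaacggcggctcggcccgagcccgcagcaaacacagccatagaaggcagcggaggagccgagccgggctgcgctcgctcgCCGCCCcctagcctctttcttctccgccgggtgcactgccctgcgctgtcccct
Timp3: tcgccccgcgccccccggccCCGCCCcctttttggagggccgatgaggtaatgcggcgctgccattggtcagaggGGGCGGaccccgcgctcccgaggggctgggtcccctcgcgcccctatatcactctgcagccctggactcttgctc

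**Figure D1:**
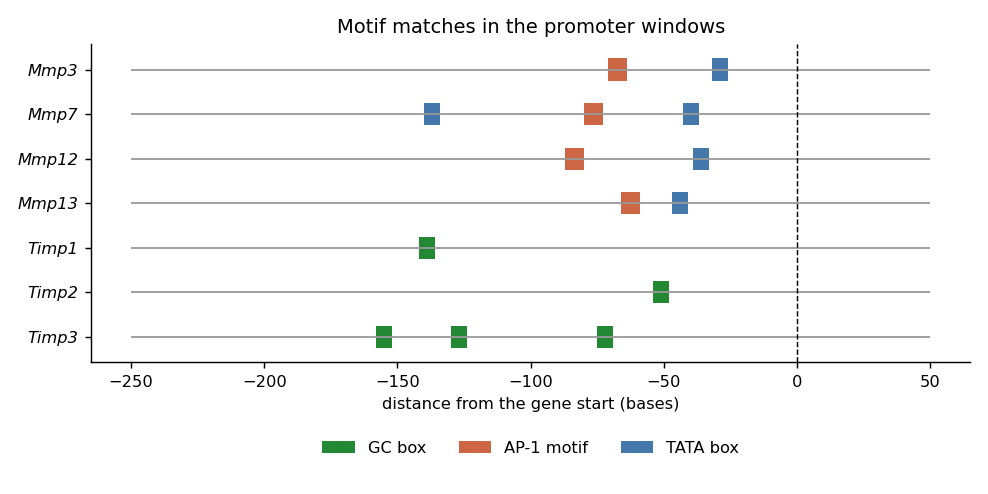
Position of matches to the AP-1 motif, TATAAA and the GC box in the 300-base promoters of 7 genes, with distance from the gene start in bases on the horizontal axis and 1 line per gene. The 4 Mmp genes carry an AP-1 match between 60 and 87 bases before the start and a TATAAA match closer to it. Of these 3 motifs, searched as exact matches, the 3 Timp genes carry the GC box alone.

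The authors deposited 1 linear intensity per RefSeq transcript and array. Of 26419 transcript rows, 18350 had a value on every array and 30.5% were blank throughout. The rule behind the blanks is not given. Array medians lay between 848 and 893. Values were taken as log2 intensity and compared with limma, whose p-values rest on a variance shared between rows. This was done since the smallest two-sided p of an exact permutation test is 0.333 with 2 arrays per group. A gene is said to rise or fall here where its unadjusted limma p was under 0.05. The study's screen asks in addition for more than 2-fold. Here it is applied with limma's p, except where the methods' t-test is named. With limma at default settings, 0 rows passed an adjusted p of 0.05 and 2196 (12.0%) had an unadjusted p under 0.05; with the methods' t-test these numbers were 0 and 1772 (9.66%). Rows did pass adjustment in other limma fits, 387 with the trend and robust options, 4 without the dimmest 25% of rows and 247 without the dimmest 50%. None of the 6 measured members was among them, and other genes that passed are named with the sensitivity of the results. Having 4 arrays limits how precise each value is. In whole tissue, fewer cells of a type and less RNA per cell cannot be told apart. Of the epithelial list, 10 of 14 genes were measured, among them Lgals4, Slc26a3, Car4 and Krt20. Their summed intensity ran from 184978 to 214424 over the 4 arrays, and Car1, Cdx1, Muc2 and Vil1 were not matched to a row. No other tissue was measured beside them, so these values do not test the colon label. Among the members, replicates of Mmp2, Timp3 and Mmp12 lay far apart in 1 of the groups, as given with each gene.

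Among the metalloproteinases, Mmp2 was higher in the MSCT group, and it was the 1 measured member that passed the screen with limma's p. Mmp2 (NM_031054) encodes gelatinase A, an enzyme of stromal cells that cuts denatured collagen and type IV collagen of basement membranes. Control rats 1 and 2 had intensities of 1454 and 894.5, and MSCT rats 1 and 2 had 2210 and 2622. Both MSCT arrays were above both control arrays. On the log2 scale Mmp2 rose from 10.16 ± 0.50 to 11.23 ± 0.17 (SD, n = 2 each), a difference of 1.08 with a standard error of 0.31 and a 95% interval from 0.26 to 1.90. This is 2.11-fold (limma unadjusted p = 0.0207, adjusted p = 0.339 over all rows). The gap between the control arrays, 0.70 on the log2 scale, was larger than in 91.6% of rows of its intensity quartile. The rise depended on single arrays. Without control replicate 2 the difference was 0.73 (limma unadjusted p = 0.0536), and without control replicate 1 it was 1.43 (limma unadjusted p = 0.00809). Without MSCT replicate 2 it was 0.95 and no longer passed (limma unadjusted p = 0.0805), and by the methods' t-test Mmp2 had an unadjusted p of 0.101.

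Mmp14 (NM_031056) encodes membrane type 1 metalloproteinase, which sits on the cell surface and opens pro-MMP2. Control rats had intensities of 4563 and 4321, and MSCT rats had 3857 and 3685. The MSCT arrays were lower than the control arrays, by little, and the replicates lay close together. The groups differed by -0.24 log2 units (standard error 0.18, 95% interval -0.73 to 0.25), which did not pass by limma (unadjusted p = 0.261, adjusted p = 0.637). By the methods' t-test, which uses the small spread of this gene alone, the unadjusted p was 0.0439. Whether Mmp2 and Mmp14 differed from each other in their change was not tested.

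Mmp12 (NM_053963) encodes the elastase of macrophages. Control rats had intensities of 148 and 135, and MSCT rats had 91.8 and 283. The MSCT arrays lay on both sides of the control arrays. The log2 difference of 0.19 (standard error 0.57, 95% interval -1.35 to 1.72; limma adjusted p = 0.916) has an interval that reaches past 2-fold in both directions. Its row was in the dimmest quartile of rows, where the median gap between the MSCT arrays was 0.55 on the log2 scale, and its own gap was 1.62. Without MSCT replicate 2 the difference turned to -0.62, and without MSCT replicate 1 it was 1.00 (limma unadjusted p = 0.0295).

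Mmp3 (stromelysin-1), Mmp7 (matrilysin, an enzyme of epithelium and glands) and Mmp9 (gelatinase B, an enzyme of neutrophils and macrophages) gave no values to compare. The blank cells do not show whether these transcripts were dim or were left out for another cause.

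**Figure D2:**
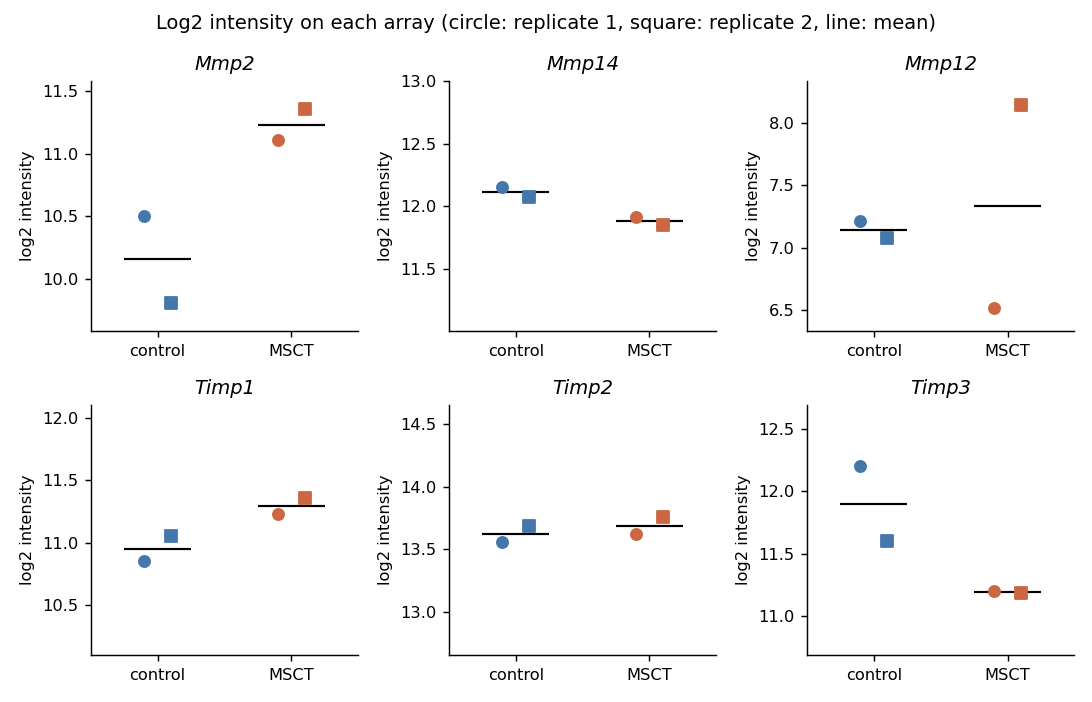
Log2 intensity of the 6 measured members on each array, with control arrays on the left and MSCT arrays on the right of each panel, circles for replicate 1, squares for replicate 2 and a line for the group mean. Each panel has its own range on the vertical axis. Both MSCT arrays lie above both control arrays for Mmp2 and Timp1 and below them for Mmp14 and Timp3, and the groups overlap for Mmp12 and Timp2.

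Of the inhibitors, none passed limma at default settings with an unadjusted p of 0.05, and their values went in different directions. Timp3 (NM_012886) encodes the inhibitor that is bound to the matrix and that also blocks the sheddase ADAM17. Control rats had intensities of 4706 and 3113, and MSCT rats had 2357 and 2329. Both MSCT arrays were lower and lay almost at the same value, while the control arrays differed by 0.60 log2 units, a gap larger than in 93.8% of rows of the brightest quartile. The group means were 11.90 ± 0.42 and 11.19 ± 0.01 (SD, n = 2 each, log2). They differed by -0.71 (standard error 0.27, 95% interval -1.43 to 0.01), so the control level was 1.63-fold that of the MSCT group (limma unadjusted p = 0.0520, adjusted p = 0.422). Without control replicate 2 the difference was -1.01 and passed the screen (limma unadjusted p = 0.0154), and without control replicate 1 it was -0.41 (limma unadjusted p = 0.145). In other limma fits Timp3 did pass, with an unadjusted p of 0.0337 without the dimmest 25% of rows, 0.0160 without the dimmest 50% and 0.00668 with the trend and robust options.

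Timp1 (NM_053819) encodes the soluble inhibitor that inflammatory signals are known to induce. Control rats had intensities of 1848 and 2128, and MSCT rats had 2400 and 2624. The MSCT arrays were higher without overlap. The log2 difference of 0.34 (standard error 0.20, 95% interval -0.19 to 0.87) did not pass (limma unadjusted p = 0.153, adjusted p = 0.551). Timp2 (NM_021989), the inhibitor that links MMP14 to pro-MMP2 on the cell surface, had the smallest difference of the members. Control rats had intensities of 12054 and 13204, and MSCT rats had 12596 and 13827, so the groups overlapped. They differed by 0.06 log2 units (standard error 0.19), with a 95% interval from -0.44 to 0.57 that leaves out a change of 2-fold (limma adjusted p = 0.912).

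As a group, 4 of the 6 measured members were higher in the MSCT group, beside 55.8% of genes measured by name, and 2 were lower. Their median difference was 0.13 on the log2 scale, beside 0.05 over the 6963 genes measured by name. By limma's unadjusted p, 1 of 6 passed, beside 12.3% of genes measured by name and 12.0% of all rows. The screen was passed by 1 of 6, beside 4.91% of named genes (4.63% of all rows), and 3.13% of named genes passed it in the direction of Mmp2. Control and MSCT arrays were fully apart in 4 of 6 members, beside 47.9% of named genes, with 2 higher (27.6%) and 2 lower (20.2%) in the MSCT group. With 6 genes these counts do not set the members apart from other genes. By the methods' t-test 1 of 6 had an unadjusted p under 0.05 (Mmp14, beside 11.0% of named genes), and 0 of 6 passed the screen, beside 2.34%.

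**Figure D3:**
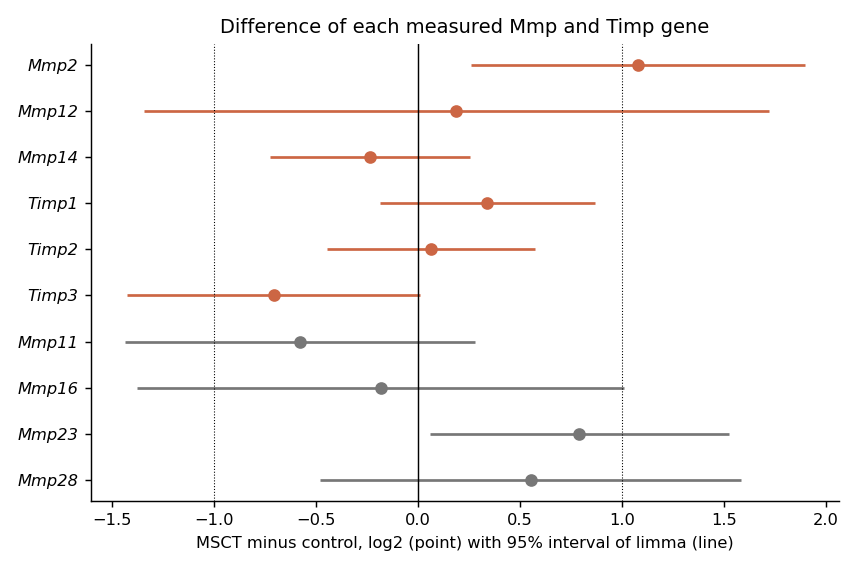
Difference between the MSCT and control groups on the log2 scale for the 6 measured members (orange) and 4 further measured metalloproteinase genes (grey), with lines for the 95% interval of limma and dotted lines at 2-fold. The intervals of Mmp2 and Mmp23 lie above 0, and the interval of Timp3 ends at 0.01.

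In the rest of the family, 4 of 16 listed genes were measured, 3 were blank (Mmp8, Mmp10 and Mmp24) and 9 had no row by name. Mmp23 (NM_053606), a metalloproteinase anchored in the membrane, had intensities of 436 and 290.0 in control rats and 659 and 573 in MSCT rats. It rose by 0.79 log2 units (standard error 0.28; limma unadjusted p = 0.0400, adjusted p = 0.397), with both MSCT arrays above the control arrays. Its limma unadjusted p was 0.118 without control replicate 2, 0.147 without MSCT replicate 1 and 0.0797 without MSCT replicate 2, with differences of 0.50, 0.69 and 0.89. Mmp28 (epilysin) differed by 0.55, Mmp11 (stromelysin-3) by -0.58 and Mmp16 (membrane type 3) by -0.18, and none of them passed. In each of these 3 genes the MSCT arrays were far apart, by 1.00, 0.77 and 1.06 on the log2 scale, and Mmp16 turned in sign without MSCT replicate 1 or control replicate 2.

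The plasminogen activator system makes the plasmin that opens several proenzymes, and it was listed with other genes that activate, bind or hold back metalloproteinases. Of 12 measured genes in the list of activation and control, 5 rose and 0 fell by limma's unadjusted p, beside 6.82% of named genes that rose and 5.44% that fell. Their median was 0.50 (log2). With single arrays left out, 3 to 5 rose, 0 to 1 fell, and the median was 0.20 at its lowest, when control replicate 1 was left out, and 0.92 at its highest, when control replicate 2 was. The count was 3 without control replicate 1, without either MSCT replicate, and by the methods' t-test. Plau (NM_013085), the urokinase, had intensities of 217 and 140 in control rats and 362 and 738 in MSCT rats, a rise of 1.57 log2 units (standard error 0.44, 2.97-fold; limma unadjusted p = 0.0200). Plaur (NM_134352), its receptor on the cell surface, had intensities of 801 and 702 in control rats and 1605 and 1479 in MSCT rats, a rise of 1.04 (standard error 0.20; limma unadjusted p = 0.00441). The urokinase and its receptor were both higher on each MSCT array than on either control array. Plg (plasminogen), Plat (the tissue activator) and the inhibitors Serpinb2 and Serpinf2 did not pass, with differences of 0.45, -0.08, -0.52 and 0.87 log2 units. Their standard errors were 0.45, 0.27, 0.83 and 0.78. Replicates lay far apart on the log2 scale, by 2.40 in the MSCT arrays for Serpinb2. In the control arrays the gap was 2.17 for Serpinf2 and 1.16 for Plg. The rise of Plau depended on single arrays, with a limma unadjusted p of 0.0540 without MSCT replicate 2 and 0.0961 without control replicate 2. Plaur had an unadjusted p under 0.05 with any 1 array left out. Thbs1 (NM_001013062), which encodes thrombospondin-1, a matrix protein that binds metalloproteinases, had intensities of 4298 and 4385 in control rats and 6577 and 6105 in MSCT rats. It rose by 0.55 log2 units (standard error 0.18; limma unadjusted p = 0.0362), and its unadjusted p ran from 0.0783 to 0.183 with single arrays left out. Of 16 promoters found for this list, that of Plaur was the 1 that held the AP-1 motif.

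Among proteins that bind MMP9, Lcn2 (NM_130741), the lipocalin of neutrophils and inflamed epithelium, had the largest rise of the list. It had intensities of 181 and 176 in control rats and 802 and 576 in MSCT rats, a rise of 1.93 log2 units (standard error 0.24, 3.81-fold; limma unadjusted p = 8.38e-04, adjusted p = 0.257). It passed the screen with any 1 array left out. Cd44, which holds MMP9 at the cell surface, rose by 0.99 (standard error 0.36; limma unadjusted p = 0.0463), just under 2-fold, and did not pass without control replicate 1 or without MSCT replicate 1. Mmp9 itself was blank.

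Of 15 other matrix and sheddase proteases measured, 2 rose and 2 fell, beside 6.82% and 5.44% of named genes. Without either MSCT replicate 0 fell, and by the methods' t-test 0 rose and 3 fell. Ctsk (NM_031560), the collagen-cutting cathepsin K, had intensities of 1131 and 820 in control rats and 1887 and 2452 in MSCT rats, a rise of 1.16 log2 units (standard error 0.27; limma unadjusted p = 0.00998). Htra1, a secreted serine protease that cuts fibronectin, rose by 1.15 (standard error 0.27; limma unadjusted p = 0.0104). Both were higher on each MSCT array than on either control array. Ctsk had a limma unadjusted p of 0.0505 without MSCT replicate 2, and Htra1 of 0.0514 without control replicate 1. Mep1a, the alpha subunit of the brush border metalloprotease meprin, fell by 0.77 log2 units (standard error 0.18; limma unadjusted p = 0.0109), which became 0.0504 and 0.0759 without MSCT replicate 1 or 2. Adam17 (NM_020306), the sheddase of tumor necrosis factor and a target of TIMP3, had intensities of 4073 and 3841 in control rats and 2704 and 2698 in MSCT rats. It fell by 0.55 (standard error 0.18; limma unadjusted p = 0.0343), with unadjusted p from 0.0641 to 0.148 when single arrays were left out. The difference of Timp3 had the same sign and did not pass. The median of this list was -0.09.

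Of the matrix proteins that metalloproteinases cut, 9 of 27 were measured, with a median of 0.30 (log2), beside 0.05 over named genes. Of the 9, 2 rose and 0 fell, beside 6.82% and 5.44% of named genes. The 2 that rose were Bgn, the small proteoglycan biglycan (0.93, standard error 0.26; limma unadjusted p = 0.0207), and Col1a2, a chain of type I collagen (0.62, standard error 0.22; limma unadjusted p = 0.0412). By the methods' t-test 0 rose. The count depended on single arrays, with 0 of the 9 rising without control replicate 2 or without MSCT replicate 2, 1 without MSCT replicate 1 and 4 without control replicate 1.

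**Figure D4:**
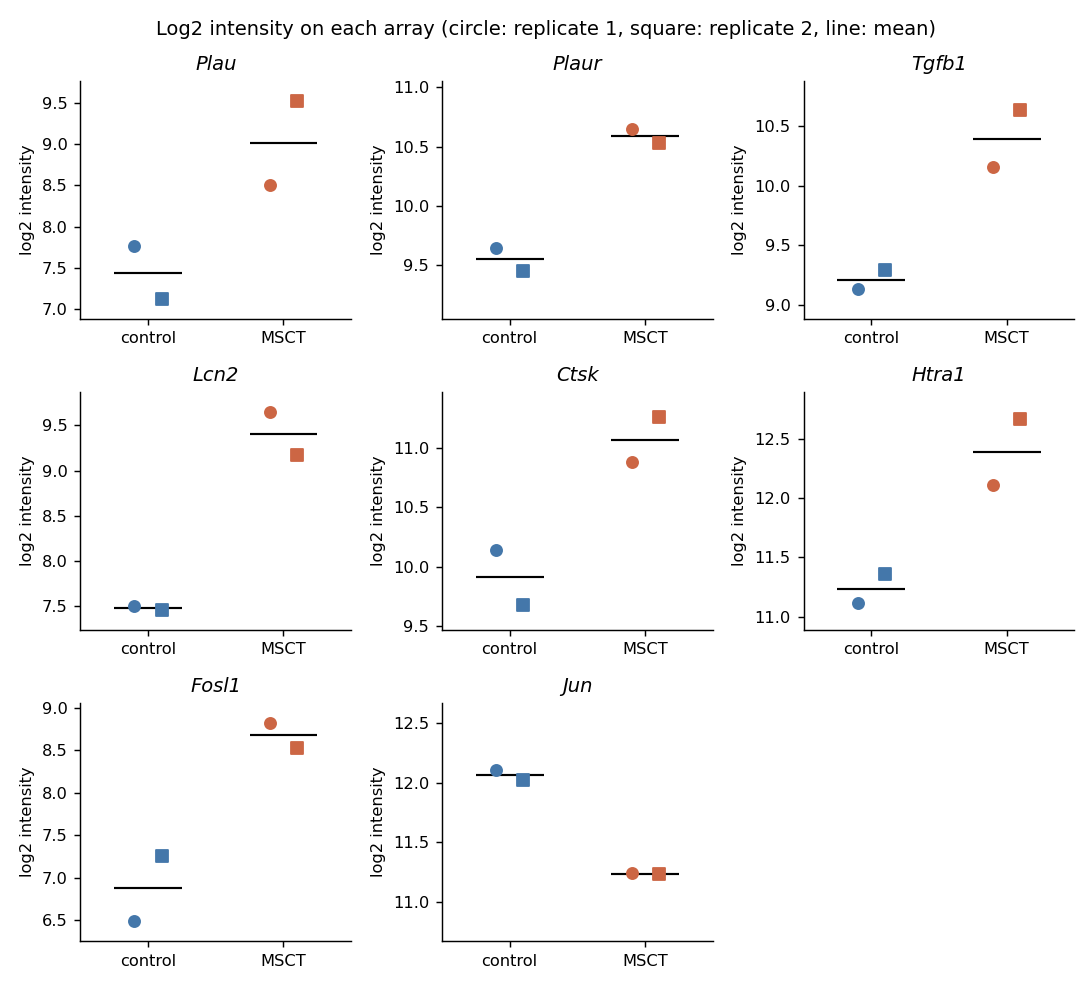
Log2 intensity on each array of 8 genes around the metalloproteinases, drawn as for the members, with a vertical range for each panel. The MSCT arrays lie above the control arrays in every panel but that of Jun, where both lie below.

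Genes that drive metalloproteinase transcription moved in both directions, and their counts stand beside 6.82% of named genes that rose and 5.44% that fell. Of 12 measured, 2 rose and 3 fell (1 or 2 fell with single arrays left out), and Il1b, Il6, Osm and Tnf were blank. Fosl1 (NM_012953), which encodes the AP-1 subunit Fra-1, had intensities of 89.6 and 153 in control rats and 453 and 370 in MSCT rats. It rose by 1.80 log2 units (standard error 0.33, 3.49-fold, limma unadjusted p = 0.00393). With single arrays left out the difference ran from 1.42 to 2.19. The row of Fosl1 was in the dimmest quartile of rows, and the filters on dim rows left it out. Tgfb1, the growth factor that induces collagen and MMP2 in stromal cells, rose by 1.19 (standard error 0.25; limma unadjusted p = 0.00653). The other AP-1 subunits that passed were lower. Jun (NM_021835) had intensities of 4416 and 4154 in control rats and 2414 and 2399 in MSCT rats, and it fell by 0.83 log2 units (standard error 0.18; limma unadjusted p = 0.00808). Its unadjusted p was 0.0503 without MSCT replicate 1 and 0.0519 without MSCT replicate 2. Fosl2 fell by 0.90 in the row with the higher mean (limma unadjusted p = 0.00612), and its other row differed by -0.29 (limma unadjusted p = 0.199). Fos fell by 0.52 (standard error 0.19; limma unadjusted p = 0.0441), and its p lay above 0.05 with any 1 array left out. Of the genes with an AP-1 match in the promoter, Mmp12 was the 1 measured member, and its groups overlapped.

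Among the lists of cell type markers, the macrophage list had the most genes that rose. Of all named genes, 6.82% rose and 5.44% fell. Of 9 measured macrophage markers, 8 rose and 0 fell, with a median of 1.00 (log2), and the summed intensity of the list ran from 17521 to 18975 in the control group and from 25207 to 29538 in the MSCT group. The count was 5 to 7 with single arrays left out and 6 by the methods' t-test. Cd68 rose by 1.29 and C1qb by 1.61 on the log2 scale, Cd14 differed by -0.04, Itgam was blank, and Cd163 and Mrc1 had no row by name. Of 8 measured fibroblast markers, 2 rose (Vim by 0.68 and Col1a2 by 0.62) and the median was 0.42. The count was 4 without control replicate 1 and 0 with any other array left out, and Dcn (0.01), Lum (0.03) and Thy1 (-0.22) did not pass. Fap (0.89, limma unadjusted p = 0.0523), Col3a1 (0.78, limma unadjusted p = 0.0631) and Twist1 (0.22) did not pass either. The differences of Fap and Col3a1 were larger than those of Vim and Col1a2. The summed intensity of the fibroblast markers ran from 40698 to 56675 in the control group and from 62881 to 67003 in the MSCT group. Of 10 neutrophil markers, 2 were measured, both in the dimmest quartile of rows, and S100a8 and Cxcr2 were blank. Ncf1 rose by 1.24 and S100a9 differed by 0.54. The sum of Ncf1 and S100a9 ran from 287 to 352 in the control group and from 560 to 626 in the MSCT group. The part of these markers in the values of Mmp2, Plau, Plaur, Ctsk and Lcn2 was not tested. Smooth muscle markers differed by between -0.04 and 0.08 on the log2 scale (0 of 5 passed, median 0.02), and of 10 epithelial markers 0 passed, with a median of 0.23 (3 rose by the methods' t-test and 4 with the trend and robust options of limma).

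**Figure D5:**
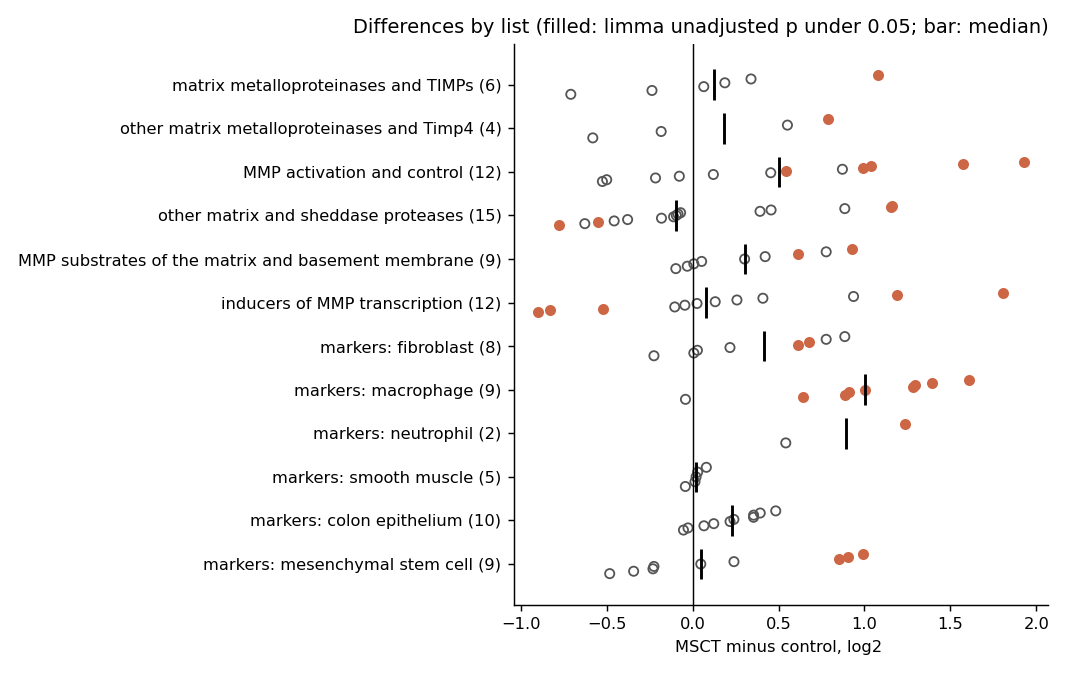
Difference between the MSCT and control groups on the log2 scale for each measured gene of the members and of the other lists, 1 point per gene, filled where the unadjusted limma p was under 0.05, with a bar at the median of the list. The macrophage list has a median of 1.00 and 8 of 9 filled points, and the smooth muscle list lies at 0.02.

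Over the 4 arrays, the pattern of Mmp2 was most like that of RT1-Da, Nrg1 and Ltb among 6962 other named genes. The measure was the root mean square distance of log2 values centred on each gene's mean, which was 0.04, 0.08 and 0.09. RT1-Da, a chain of the MHC class II molecule, had intensities of 3837 and 2452 in control rats and 5613 and 6843 in MSCT rats, with the same order of the 4 arrays as Mmp2. With 4 arrays the likeness is a description.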

How the data were processed

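Colon RNA of control and MSCT rats was converted to cDNA, labeled with Cy3 and put on one-color NimbleGen arrays, 2 per group. The arrays were read with a GenePix scanner and NimbleScan. The authors deposited 1 linear intensity per RefSeq transcript and array. The submitters' processing notes name RMA, a method of background correction, scaling and combination of probes, and its settings and the rule for blank rows are not given in the sources used here. If RMA was applied, small differences between arrays may have been smoothed before deposit, and probes of 1 transcript cannot be compared. The table had 0 value columns without a sample, and 1 control row without values was left out.

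Intensities were converted to log2 with no pseudocount, scaling or filter. The model (lmFit and eBayes of limma 3.58.1, R 4.3.3, default settings) was fitted over 18350 rows, with Benjamini-Hochberg adjustment over all of them. The screen was an unadjusted p under 0.05 and more than 2-fold. The paper names one-way analysis of variance and no test for the chips. With 2 groups that analysis equals the t-test with pooled variance, here the methods' t-test. With this t-test and the 2-fold limit 388 rows passed, 191 higher and 197 lower in the MSCT group. These are the counts that the paper gives for its chips. The test was checked on simulated data made from these arrays. Rows were named through RefSeq accessions of GRCr8 without versions (7062 of 18350 rows, 7004 of 7292 NM rows), and the row with the highest mean was used per gene. GRCr8 served for names and for promoter sequences only (Python 3.11.15, pandas 2.3.3, matplotlib 3.10.9), and the motifs other than AP-1 were added later. Protein sequence was not analysed here, and 1 gene of the activation list is not reported and was left out of its counts.

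The members and lists were chosen with earlier results of these data known. Named are the 10 members, the measured genes of the rest of the family, of each pathway list up to 5 genes in each direction past an unadjusted p of 0.05, and the 3 genes nearest to the member with the largest difference. The markers and blank genes that are named, and genes whose values are given for a sign only, were chosen after their values were seen. Alternatives were the methods' t-test, trend and robust options of eBayes, scaling to equal medians, quantile normalization, a filter on the dimmest 25% or 50% of rows, the replicate number as a block, each array left out in turn, a fold limit of 1.5 or none, folds of linear means, and another row per gene.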

Additional observations from a re-analysis of the deposited data

How the results depend on the processing

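The screen was passed by 850 rows, by 1 of the 6 measured members (Mmp2) and by 7 of the 52 measured genes of the other pathway lists. With the methods' t-test the counts were 388, 0 and 4. Without the dimmest 50% of rows they were 251, 1 and 4, over 9175 rows, 5 members and 35 list genes, since Mmp12 was left out there. With a fold limit of 1.5 the counts were 2019, 1 and 14, and with p alone 2196, 1 and 17. With each array left out, where the lone array of a group is taken to vary like the others, the count of all rows ranged from 934 to 1565 (1565 without control replicate 2 and 1503 without MSCT replicate 2), that of members from 0 to 1 (0 without MSCT replicate 2, and without control replicate 2 the 1 was Timp3) and that of the lists from 5 to 11 (11 without control replicate 1). With the replicate number as a block the counts were 971, 1 and 7. The labels do not say that a number marks a shared cage, day or batch, and over 2 pairs the deviations of same-numbered arrays had a correlation of 0.23 across rows, so the pairing was not used. With the block Timp3 had a limma unadjusted p of 0.0473, and 3 of 12 activation genes and 1 of 9 matrix proteins rose. The other settings kept these counts within 1.5 times. The median of all rows moved by less than 0.1 with either scaling (from -0.02 to 0.02). Of the members, Mmp12 turned to between -0.62 and 1.00 and Timp2 to between -0.0023 and 0.13 with single arrays left out, and so did Mmp16 of the wider family, between -0.71 and 0.35 (0.35 without MSCT replicate 1 and 0.12 without control replicate 2). Timp2 was at -0.0007 without control replicate 1. Of 88 values of the 6 members under the alternatives, 81 kept their sign and their side of the screen, and of 289 values of 20 other named genes 250 did. Many of these values could not change sign, since several alternatives alter the p or the fold limit alone. Each measured member had 1 row, so the choice of row changed nothing for them. These counts therefore do not measure how stable the differences are. The limma adjusted p of Mmp2 ranged from 0.0622 (trend and robust) to 0.677 over the fits, and that of Timp3 from 0.132 to 0.784. Past an adjusted p of 0.05 were Lcn2, Ctsk, Htra1, Mep1a, Bgn, Fosl2 and Jun of the pathway lists with limma's trend and robust options, and Plaur, Tgfb1, Fosl2 and Jun without the dimmest 50% of rows. Of the macrophage markers, 5 and 4 passed in these fits, and Vim in the former. The cause of these differences was not tested. Replicates lay furthest apart in dim rows: the median gap between control arrays was 0.52 on the log2 scale in the dimmest quartile of rows and 0.19 in the brightest.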

Other observations

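MSCs were typed for CD44 and CD54 before transplantation, and a list of 9 surface genes of such cells was measured in full. Of these, 3 rose by limma's unadjusted p and 0 fell, beside 6.82% and 5.44% of named genes. The count was 1 without MSCT replicate 2, and 2 without MSCT replicate 1, without control replicate 1 and by the methods' t-test. Icam1, which encodes CD54, had intensities of 305 and 276 in control rats and 519 and 566 in MSCT rats, a log2 rise of 0.90 (standard error 0.19; limma unadjusted p = 0.00705, adjusted p = 0.291). Eng, a receptor of the TGF-beta family that endothelium also carries, rose by 0.85 and Cd44 by 0.99, which did not pass without control replicate 1 or MSCT replicate 1. Thy1 differed by -0.22, Nt5e by -0.34 and Vcam1 by -0.48, and the median of the list was 0.05. These genes are also expressed by endothelium, leukocytes and fibroblasts of the host.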
